A study of Mus musculus with 8 samples.

Results

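The genes described here are 9 transcription factors of the macrophage lineage, *Spi1*, *Cebpa*, *Cebpb*, *Irf4*, *Pparg*, *Bhlhe40*, *Maf*, *Zeb2* and *Runx3*. They were picked by gene name, with earlier results of these data known, and are 9 of the 26939 genes in the joined count tables. All 9 passed the filter on low counts in each comparison. RNA was measured in tumor-associated macrophages (TAMs), taken from live cells by sorting for CD45, CD11b and F4/80 and against Gr-1. The tumors were grown from EO771, a mouse breast cancer cell line placed in the mammary fat pad of female mice aged 8 to 14 weeks. Tumors were harvested on day 21. There were 4 groups of 2 libraries: control and αMARCO TAMs of WT mice (C57BL/6J), and control and αMARCO TAMs of *Unc93b1* 3d/3d mice. The 3d mutation in UNC93B1, carried in every cell of the mouse, leaves the animals without functional TLR3, TLR7 and TLR9. αMARCO is a rat IgG1 antibody, clone ED31, against the scavenger receptor MARCO, and was injected at 100 µg on days 3, 6, 9 and 12. The labels call the control mice untreated and name their libraries PBS, while the methods name a rat IgG1 isotype antibody, clone TNP6A7, so the injection that they received is not settled. Each control library came from cells of 3 pooled mice, and whether the αMARCO libraries were pooled is not given in the sources used here. The title of the second *Unc93b1* 3d/3d control library gives the genotype as 3d/3d, and its genotype label gives 3d/4d. The *P* values measure only the spread between these libraries.

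Macrophage identity is set by a small number of transcription factors. PU.1, encoded by *Spi1*, opens the enhancers of myeloid genes together with C/EBP factors, and later factors such as PPAR-gamma, IRF4 and MAF adjust the program to the tissue, to cytokines and to lipids. In tumors, such factors are studied because inflammatory and suppressive TAM states share most of their lineage genes and differ in the genes laid over them.

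The libraries held 15182618 to 26411936 counts, and 3 counts, the smallest amount taken as detected, corresponded to 0.114 to 0.198 CPM, the count scaled to the size of the library. These floors cover counting error only. The 8 genes of the sorted macrophage list, among them *Adgre1* (F4/80), *Itgam* (CD11b) and *Csf1r*, summed to between 6776 and 8667 CPM in every library. The sum hides changes of single genes. *Lyz2* alone had 2015 to 4230 CPM, and *Mertk* had 69.5 and 67.8 CPM in WT control and 167 and 168 CPM in *Unc93b1* 3d/3d control. The second *Unc93b1* 3d/3d αMARCO library stood apart. Its distance in log2 CPM to the other 7 libraries was 132 to 144, against 56.1 to 123 among those 7. This library also held the fewest genes with any count, 19700. For the tests that hold it, the calls of the factors are given with and without it, and many fold changes only with it. *Unc93b1* itself had 848 and 965 CPM in WT control, 539 and 660 CPM in *Unc93b1* 3d/3d control, 749 and 707 CPM in WT αMARCO, and 557 and 641 CPM in *Unc93b1* 3d/3d αMARCO. A gene count does not show the 3d mutation.

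Levels differed widely between the factors. Compared per kilobase of the length in the deposited tables, *Cebpb* had the highest level in WT control TAMs, 411 ± 41.7 CPM per kilobase (SD, n = 2), followed by *Spi1* at 287 ± 9.93. *Cebpa* had 80.5 ± 3.80, *Maf* 60.4 ± 4.64 and *Bhlhe40* 46.5 ± 8.87 CPM per kilobase. *Pparg*, *Runx3* and *Zeb2* followed at 31.3 ± 4.83, 25.7 ± 6.39 and 25.7 ± 1.94, and in this order the libraries of neighbouring genes overlapped. *Irf4* was the lowest of the 9, at 3.19 ± 0.553 CPM per kilobase. *Cebpb* and *Spi1* held the first and second place, and *Irf4* the last, in all 4 groups.

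**Figure D1:**
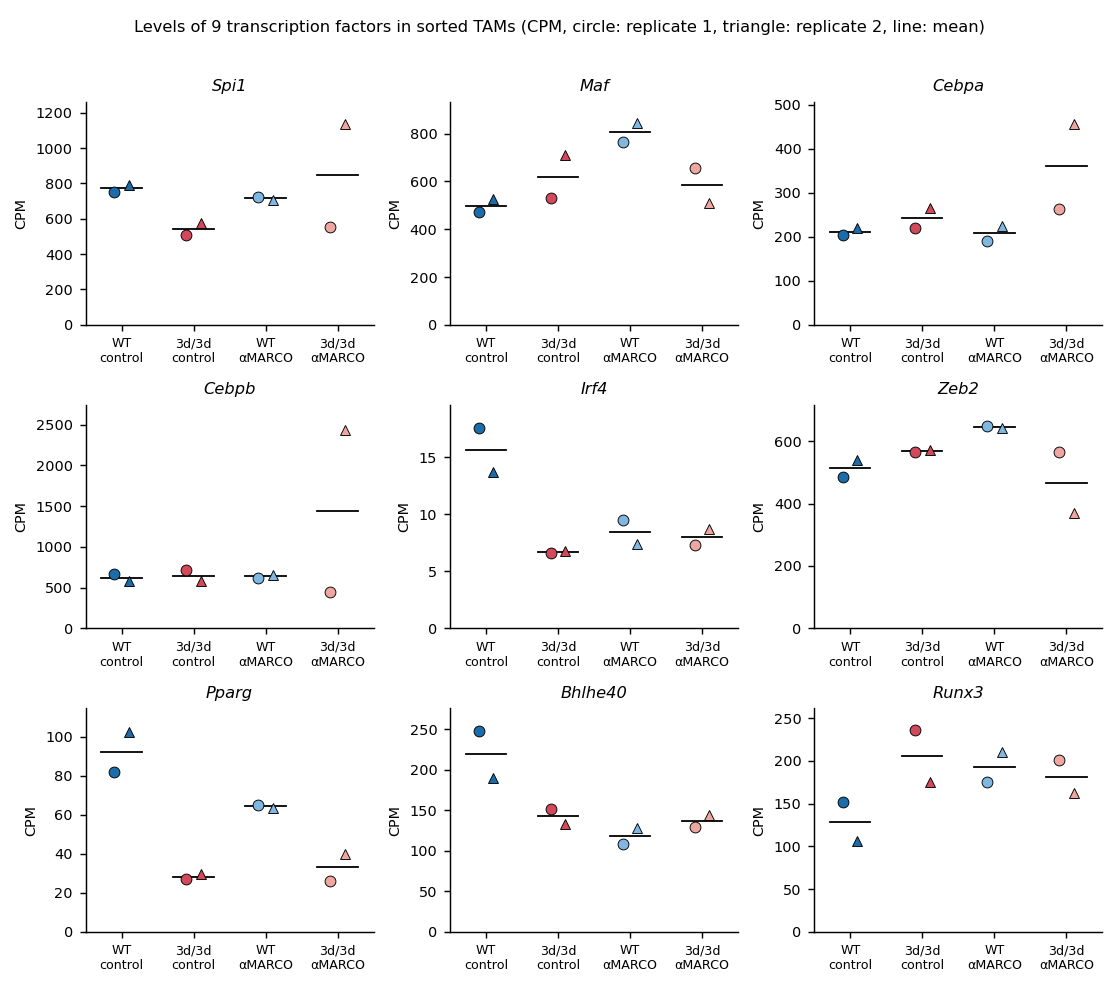
Levels of the 9 transcription factors in CPM (linear axis from 0) in the 4 groups, with a circle for replicate 1, a triangle for replicate 2 and a line at the mean. *Pparg* and *Irf4* are highest in both WT control libraries, and the second *Unc93b1* 3d/3d αMARCO library departs from its replicate most for *Cebpb*, at 2438 against 441 CPM.

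The first comparison set WT against *Unc93b1* 3d/3d in control TAMs, and asked which factors differ in TAMs that lack endosomal TLR signaling. *Pparg*, *Irf4* and *Bhlhe40* were higher in WT. The other 6 factors were not called, which required an adjusted *P* of at most 0.05 by edgeR's quasi-likelihood test with Benjamini-Hochberg adjustment and a log2 fold change of 0.5 or more in either direction. Of the 9 factors, 3 were thus called, all higher in WT, where 13% of the 15600 genes tested were called, 6.58% higher and 6.4% lower. The libraries of WT and *Unc93b1* 3d/3d did not overlap for 7 of the 9, against 63.1% of all genes. The median log2 fold change of the 9 was −0.08, against −0.0036 over all genes tested. In sorted bulk samples, fewer cells of a type and less RNA per cell cannot be told apart.

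*Pparg* (ENSMUSG00000000440, GRCm38 chromosome 6, 115360951 to 115490399, plus strand) encodes PPAR-gamma, a nuclear receptor for fatty acids that controls genes of lipid uptake and storage. It had 82.2 and 102 CPM in WT control, 27.1 and 29.4 CPM in *Unc93b1* 3d/3d control, 65.3 and 63.5 CPM in WT αMARCO, and 26.2 and 40.0 CPM in *Unc93b1* 3d/3d αMARCO. All 4 WT libraries lay above all 4 *Unc93b1* 3d/3d libraries, and WT control and WT αMARCO did not overlap. In control TAMs the level was 3.23-fold higher in WT, a log2 fold change of 1.69 (SE 0.13, adjusted *P* = 6.74e-05 by edgeR), the strongest change among the 9 factors, and it was called under every alternative that was run.

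*Irf4* (ENSMUSG00000021356, GRCm38 chromosome 13, 30749226 to 30766976, plus strand) encodes an interferon regulatory factor that acts in alternative macrophage activation and in dendritic, T and B cells. It had 17.6 and 13.7 CPM in WT control, 6.59 and 6.75 CPM in *Unc93b1* 3d/3d control, 9.51 and 7.41 CPM in WT αMARCO, and 7.27 and 8.70 CPM in *Unc93b1* 3d/3d αMARCO. Both WT control libraries lay above the 6 others, and the αMARCO groups overlapped. Among control TAMs the WT level was 2.32-fold higher, a log2 fold change of 1.22 (SE 0.20, adjusted *P* = 0.00427 by edgeR), and this call too was made under every alternative that was run.

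*Bhlhe40* (ENSMUSG00000030103, GRCm38 chromosome 6, 108660629 to 108666925, plus strand) encodes a helix-loop-helix repressor of the circadian clock that also acts in resident macrophages and in T cells. It had 248 and 189 CPM in WT control, 152 and 133 CPM in *Unc93b1* 3d/3d control, 109 and 129 CPM in WT αMARCO, and 129 and 144 CPM in *Unc93b1* 3d/3d αMARCO. Both WT control libraries were above all others. The log2 fold change between genotypes in control TAMs was 0.60 (SE 0.14, adjusted *P* = 0.0192 by edgeR). This call was lost without the first WT control library, at 0.40, without the second *Unc93b1* 3d/3d control library, at 0.51 with adjusted *P* = 0.100, and in a model of all 8 libraries, with adjusted *P* = 0.149.

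Because *Pparg* and *Irf4* both rose in WT control TAMs, their upstream windows are shown, with capitals at matches to short motifs of the factors described here. The windows are the 250 bases before transcription starts in RefSeq, on GRCm38.p6, and 6 of the 9 factors had such windows. Those shown are on the plus strand. The *Irf4* window is chr13:30748983-30749232, and 2 of the 3 *Pparg* windows are chr6:115362099-115362348 and chr6:115421816-115422065, at different starts of that gene.
Irf4: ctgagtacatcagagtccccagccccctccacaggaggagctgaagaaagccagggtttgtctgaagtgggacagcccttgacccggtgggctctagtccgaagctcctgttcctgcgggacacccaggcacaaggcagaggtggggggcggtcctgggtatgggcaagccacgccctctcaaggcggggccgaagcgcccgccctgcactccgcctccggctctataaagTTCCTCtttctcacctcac
Pparg first: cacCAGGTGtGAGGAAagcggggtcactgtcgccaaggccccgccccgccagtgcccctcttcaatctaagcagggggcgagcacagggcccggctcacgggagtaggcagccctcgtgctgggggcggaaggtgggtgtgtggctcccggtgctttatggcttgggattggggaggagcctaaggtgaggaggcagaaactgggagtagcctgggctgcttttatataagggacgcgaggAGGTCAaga
Pparg second: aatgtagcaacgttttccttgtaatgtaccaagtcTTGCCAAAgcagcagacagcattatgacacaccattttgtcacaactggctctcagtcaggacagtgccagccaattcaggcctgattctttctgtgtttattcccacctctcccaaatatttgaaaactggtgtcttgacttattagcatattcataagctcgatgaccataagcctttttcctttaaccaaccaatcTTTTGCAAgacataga
The search covered both strands. In the *Irf4* window the capitals mark the reverse complement of the PU.1 core GAGGAA, 19 bases before the start, a motif that 23.3% of the 32851 windows of this length held. The first *Pparg* window held GAGGAA at 240 bases before its start, beside the ZEB motif CAGGTG (17.2% of windows), and the PPAR motif AGGTCA at 9 bases before it (14.02% of windows). The second *Pparg* window held the C/EBP motif TTGCNNAA at 215 and 16 bases before its start (9.56% of windows). None of the 12 windows of the factors held the MAF motif TGCTGAC, the IRF motif, GAAA repeated after 2 bases, or the BHLHE40 motif CACGTG, held by 3.81%, 2.98% and 6.02% of all windows. No motif overlapped another. The matches describe these letters, the counts are per gene, and the RNA from different starts was not separated.

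The myeloid pioneer factors differed less. *Spi1* (ENSMUSG00000002111, GRCm38 chromosome 2, 91082390 to 91115756, plus strand) had 754 and 792 CPM in WT control, 511 and 575 CPM in *Unc93b1* 3d/3d control, 725 and 708 CPM in WT αMARCO, and 554 and 1138 CPM in *Unc93b1* 3d/3d αMARCO. Both WT groups lay above *Unc93b1* 3d/3d control, and the 2 *Unc93b1* 3d/3d αMARCO libraries lay apart, the first beside *Unc93b1* 3d/3d control and the second above all others. The log2 fold change between genotypes in control TAMs was 0.49 (SE 0.10, adjusted *P* = 0.0116 by edgeR), just below the fold change threshold, and it was called without the first WT control library (0.54) and without the second *Unc93b1* 3d/3d control library (0.57).

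*Cebpa* (ENSMUSG00000034957, GRCm38 chromosome 7, 35119293 to 35121928, plus strand), which encodes a factor of myeloid commitment, had 205 and 219 CPM in WT control, 219 and 265 CPM in *Unc93b1* 3d/3d control, 191 and 225 CPM in WT αMARCO, and 264 and 457 CPM in *Unc93b1* 3d/3d αMARCO. The control groups overlapped (log2 fold change −0.21, SE 0.11, adjusted *P* = 0.226 by edgeR). *Cebpb* (ENSMUSG00000056501, GRCm38 chromosome 2, 167688915 to 167690418, plus strand), which encodes C/EBP-beta, a factor of inflammatory and regenerative gene programs, had 663 and 575 CPM in WT control, 715 and 580.1 CPM in *Unc93b1* 3d/3d control, 620.1 and 656 CPM in WT αMARCO, and 441 and 2438 CPM in *Unc93b1* 3d/3d αMARCO. The control groups overlapped again, with a log2 fold change of −0.08 (SE 0.13, adjusted *P* = 0.70 by edgeR). Exons of *Cebpb* share 312 bases with *Tmem189* on the opposite strand, whose counts were 26.8% of those of *Cebpb*. Reads from such a pair cannot be told apart without strand, which is not given in the sources used here.

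*Maf* (ENSMUSG00000055435, GRCm38 chromosome 8, 115682942 to 115707794, minus strand) encodes c-MAF, which is known for *Il10* and for resident macrophage genes. It had 471 and 525 CPM in WT control, 529 and 709 CPM in *Unc93b1* 3d/3d control, 764 and 846 CPM in WT αMARCO, and 657 and 509 CPM in *Unc93b1* 3d/3d αMARCO. The WT αMARCO libraries were the highest, and WT control was below *Unc93b1* 3d/3d control without overlap. The difference in control TAMs did not pass the test (log2 fold change −0.33, SE 0.14, adjusted *P* = 0.137 by edgeR), but did without the first *Unc93b1* 3d/3d control library (−0.52, adjusted *P* = 0.0184).

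*Zeb2* (ENSMUSG00000026872, GRCm38 chromosome 2, 44983632 to 45117395, minus strand) encodes a zinc finger repressor that maintains macrophage identity in several tissues. It had 486 and 540.1 CPM in WT control, 567 and 573 CPM in *Unc93b1* 3d/3d control, 649.5 and 643 CPM in WT αMARCO, and 566 and 368 CPM in *Unc93b1* 3d/3d αMARCO. The WT αMARCO libraries were again the highest. In control TAMs the log2 fold change was −0.17 (SE 0.10, adjusted *P* = 0.273 by edgeR), and its sign turned, to 0.15, once length and GC effects were fitted per library.

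*Runx3* (ENSMUSG00000070691, GRCm38 chromosome 4, 135120652 to 135177990, plus strand) encodes a RUNX factor of mononuclear phagocytes and of cytotoxic lymphocytes. It had 151 and 106 CPM in WT control, 236 and 175 CPM in *Unc93b1* 3d/3d control, 175 and 210.3 CPM in WT αMARCO, and 201 and 162 CPM in *Unc93b1* 3d/3d αMARCO. WT control lay below the 3 other groups, which overlapped. The log2 fold change in control TAMs was −0.69 (SE 0.22, adjusted *P* = 0.0868 by edgeR). It was called by DESeq2, with adjusted *P* = 0.0014, and by edgeR without the first WT control library, at −0.96.

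**Figure D2:**
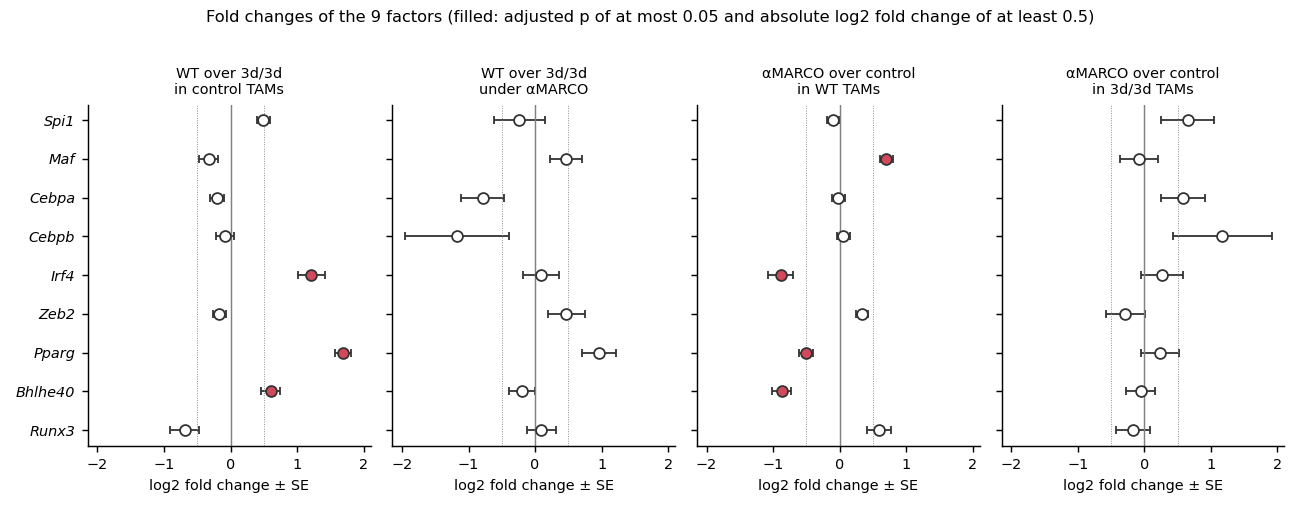
Log2 fold changes of the 9 factors (points) with standard errors (bars) in the 4 comparisons, filled where called, with dotted lines at ±0.5. Calls were made in control TAMs (3) and in WT TAMs (4), and the bars are widest in the 2 comparisons that hold the second *Unc93b1* 3d/3d αMARCO library.

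The second comparison set αMARCO against control in WT TAMs, and asked how the antibody treatment changes the factors where endosomal TLRs work. *Maf* rose, and *Irf4*, *Bhlhe40* and *Pparg* fell. These were 4 of the 9 factors, 1 higher and 3 lower, where 20.7% of the 15630 genes tested were called, 8.91% higher and 11.8% lower. The groups did not overlap for 7 of the 9, against 70.9% of all genes. The median log2 fold change was −0.02 over the 9 and −0.012 over all genes tested. This comparison shares the WT control libraries with the first, so the changes of *Pparg*, *Irf4* and *Bhlhe40* in the 2 comparisons are not independent.

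*Maf* was 1.63-fold higher with αMARCO, from 471 and 525 to 764 and 846 CPM, a log2 fold change of 0.70 (SE 0.10, adjusted *P* = 0.000806 by edgeR). *Bhlhe40* was lower, at 109 and 129 against 248 and 189 CPM, a log2 fold change of −0.87 (SE 0.14, adjusted *P* = 0.00412 by edgeR). *Irf4* was lower, at 9.51 and 7.41 against 17.6 and 13.7 CPM, a log2 fold change of −0.89 (SE 0.19, adjusted *P* = 0.00606 by edgeR). Both αMARCO libraries lay on the same side of both control libraries for each of these genes. *Pparg* had a log2 fold change of −0.51 (SE 0.11, adjusted *P* = 0.00569 by edgeR), close to the threshold of 0.5. Its call was lost without the second WT control library (−0.35), without the second WT αMARCO library (−0.49), with DESeq2, and after the length and GC correction (−0.41). *Irf4* lost its call without the second WT αMARCO library, with adjusted *P* = 0.058. None of the 4 was called in a model of all 8 libraries, which also holds the library that stood apart: adjusted *P* was 0.224 for *Pparg*, 0.108 for *Irf4*, 0.0674 for *Bhlhe40* and 0.136 for *Maf*, with fold changes in the same direction.

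The other 5 factors were not called in WT TAMs. *Zeb2* had a log2 fold change of 0.34 (SE 0.09, adjusted *P* = 0.0158 by edgeR), below the fold change threshold, and 0.08 after the length and GC correction. *Runx3* had 0.59 (SE 0.19, adjusted *P* = 0.0611 by edgeR), and was called by DESeq2, with adjusted *P* = 0.000664, by edgeR without the first WT control library (0.86), and after the length and GC correction (0.67). *Spi1*, *Cebpa* and *Cebpb*, the pioneer and C/EBP factors, had −0.10 (SE 0.09), −0.02 (SE 0.09) and 0.05 (SE 0.10).

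Marker genes of other cells moved with these results. The 15 T cell markers, all detected in both WT control libraries, summed to 161 and 180.4 CPM there, 35.0 and 17.2 CPM in *Unc93b1* 3d/3d control, 16.8 and 25.4 CPM in WT αMARCO, and 12.1 and 12.4 CPM in *Unc93b1* 3d/3d αMARCO. All 15 were called higher in WT control than in *Unc93b1* 3d/3d control, and all 15 lower with αMARCO in WT. *Cd3e*, part of the T cell receptor complex, had 4.58 and 8.81 CPM in WT control and 0.316 to 1.57 CPM in the other groups. The 9 mature dendritic cell markers summed to 1095 and 706 CPM in WT control and to 393 to 547 CPM in the other groups. Most of the sum outside WT control was *Zmynd15*, which went the other way, at 208 and 251 CPM in WT control and 321 to 458 CPM elsewhere. In control TAMs 3 of 8 tested were called higher in WT and 1, *Zmynd15*, lower, and with αMARCO in WT 5 were called lower and 1, again *Zmynd15*, higher. *Ccr7*, a chemokine receptor of migrating dendritic cells, had 214 and 119 CPM in WT control and 9.25 to 16.5 CPM elsewhere. The 10 NK cell markers summed to 129 and 120.0 CPM in WT control and 9.07 to 36.3 CPM elsewhere, and the 7 conventional dendritic cell markers to 115 to 199 CPM in WT control and 58.8 to 104 CPM elsewhere. Of the NK cell markers 4 of 10 tested were called higher in WT in control TAMs and 6 of 9 lower with αMARCO in WT, and of the conventional dendritic cell markers 1 of 7 and 3 of 7. Not all single markers followed the sums: *Clec10a*, a lectin of dendritic cells and macrophages, had 42.1 and 35.6 CPM in WT control and 72.5 CPM in the second *Unc93b1* 3d/3d αMARCO library. *Irf4*, *Bhlhe40* and the sums of these 4 lists were highest in WT control, while *Runx3*, which lymphocytes also use, was lowest there. What part these cells have in the values of *Irf4*, *Bhlhe40*, *Maf* and *Runx3* was not tested.

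The 11 nonclassical monocyte markers summed to 1733 CPM in each WT control library, 560 to 697 CPM in *Unc93b1* 3d/3d control, 1557 to 1727 CPM in WT αMARCO and 945 to 1149 CPM in *Unc93b1* 3d/3d αMARCO. This sum, like *Pparg*, was higher in every WT library than in every *Unc93b1* 3d/3d library, but its members were not alike. In control TAMs 4 of 11 were called higher in WT and 1 lower, and with αMARCO in WT 1 was called higher and 4 lower. *Nr4a1*, a large part of the sum, was highest in the second *Unc93b1* 3d/3d αMARCO library, at 918 CPM, and *Cx3cr1*, the fractalkine receptor, had 11.2 to 16.6 CPM in the WT libraries and 24.7 to 41.8 CPM in the *Unc93b1* 3d/3d libraries. The part of these cells in the *Pparg* result was not tested. The 8 classical monocyte markers lay between 615 and 1494 CPM, the 9 neutrophil markers between 219 and 380 CPM, and the 12 B and plasma cell markers between 47.6 and 119 CPM. The 6 fibroblast markers lay between 23.8 and 172 CPM and the 6 epithelial markers between 30.8 and 106 CPM. In control TAMs 3 of 6 fibroblast markers and 2 of 8 classical monocyte markers were called lower in WT, and 1 of 4 B and plasma cell markers higher. In WT TAMs with αMARCO, 3 of 6 fibroblast, 2 of 3 epithelial, 2 of 5 neutrophil and 2 of 5 B and plasma cell markers were called lower, and 2 of 8 classical monocyte markers higher. Their part in the values of the factors was not tested. *Krt19* was at 0 in both libraries of *Unc93b1* 3d/3d control and, with *Cldn4*, in both of WT αMARCO, and the neutrophil granule genes *Camp* or *Ngp* were at 0 in both libraries of each group. Of the 8 sorted macrophage markers, 2 were called higher and 2 lower in WT in control TAMs, and 1 lower with αMARCO in WT. *Adgre1* had 573 and 720 CPM in WT control and 444 and 438 CPM in WT αMARCO.

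**Figure D3:**
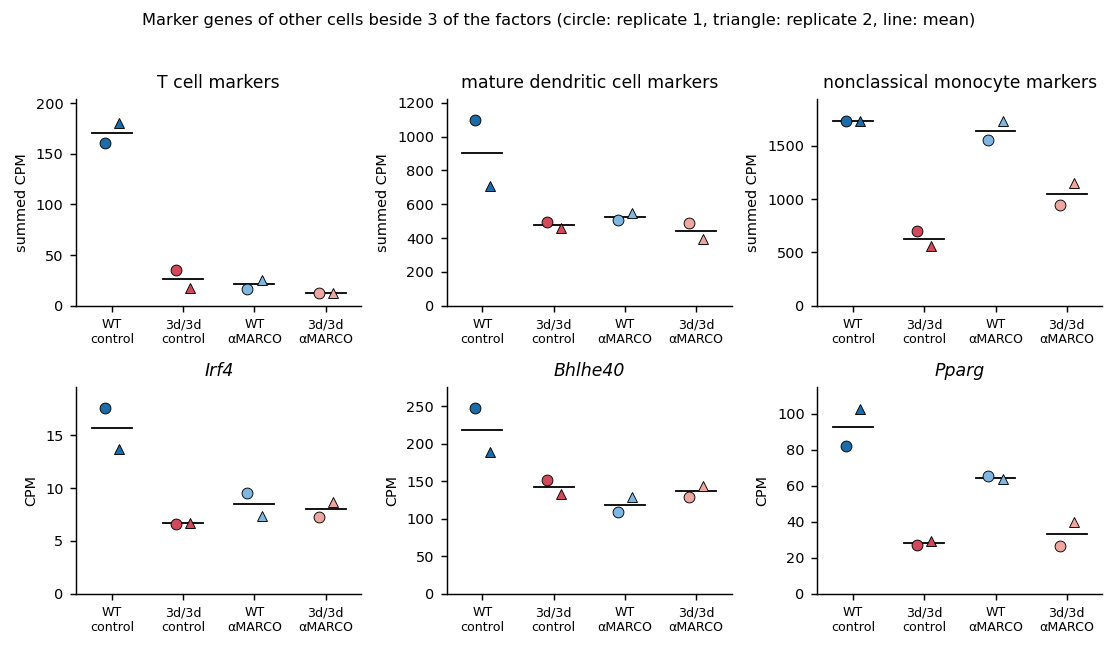
Summed CPM of the T cell, mature dendritic cell and nonclassical monocyte markers (upper panels) and CPM of *Irf4*, *Bhlhe40* and *Pparg* (lower panels) by library, with circles and triangles for replicates 1 and 2 and lines at the means, all axes from 0. The sums of the T cell and dendritic cell markers, *Irf4* and *Bhlhe40* are highest in the 2 WT control libraries, and the sum of the monocyte markers and *Pparg* are higher in every WT library than in every *Unc93b1* 3d/3d library.

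Genes known from other work to depend on these factors, or to act beside them, were then counted. These lists were chosen with earlier results of these data known. Over all genes tested, 6.58% were called higher and 6.4% lower in WT in control TAMs. With αMARCO in WT the shares were 8.91% higher and 11.8% lower. The PPAR-gamma targets include *Angptl4*, an inhibitor of lipoprotein lipase, and *Nr1h3*, the LXR-alpha receptor. In control TAMs 2 of 6 tested were called higher in WT and none lower, with a median log2 fold change of 0.89: *Angptl4* at 1.81 (SE 0.22, adjusted *P* = 0.00101 by edgeR) and *Nr1h3* at 1.82 (SE 0.24, adjusted *P* = 0.0094 by edgeR). With αMARCO in WT none was called higher and 2 were called lower, with a median of −0.51: *Fabp4*, a fatty acid binding protein, at −1.17 (SE 0.16, adjusted *P* = 0.000684 by edgeR), and *Angptl4* at −0.78 (SE 0.17, adjusted *P* = 0.00643 by edgeR). *Angptl4* had 18.8 and 18.2 CPM in WT control, 6.28 and 4.26 CPM in *Unc93b1* 3d/3d control, and 8.98 and 12.3 CPM in WT αMARCO. The lists share genes, so they are not independent. *Fabp4* also stands in the nonclassical monocyte list, and *Nr1h3* and *Nr4a1* among the other myeloid transcription factors below. *Nr4a1* is a C/EBP-beta target here as well. *Mrc1* is in the MAF-linked and IRF4-linked lists, and *Arg1* in the IRF4-linked and C/EBP-beta lists. *Itgam* and *Lyz2* are both PU.1 targets and sorted macrophage markers, and *Zbtb46* is also a conventional dendritic cell marker.

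The MAF-linked list of resident macrophage genes did not move as 1 group. In control TAMs 6 of its 11 genes were called lower in WT and 1 higher, with a median of −0.87. *Gas6*, a bridging ligand in the uptake of dying cells, had −2.40 (SE 0.12, adjusted *P* = 4.08e-06 by edgeR), and *Stab1*, a scavenger receptor, −2.06 (SE 0.11, adjusted *P* = 7.00e-06 by edgeR). *F13a1*, the A subunit of coagulation factor XIII, had −1.56 and *Folr2*, a folate receptor, −0.87. The gene called higher in WT was *Il10*, an anti-inflammatory cytokine, at 0.96, named after its value was seen. With αMARCO in WT, 2 were called higher and 3 lower, with a median of −0.049. *Stab1* rose by 1.504 (SE 0.10, adjusted *P* = 4.12e-05 by edgeR), from 319 and 354 to 998 and 900.3 CPM. The complement genes *C1qa*, *C1qb* and *C1qc* had −0.73, −0.59 and −0.71.

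Of the 8 IRF4-linked genes, 1 was called higher and 1 lower in each comparison, with medians of 0.92 in control TAMs and −0.96 with αMARCO in WT. *Ccl17*, a chemokine of dendritic cells and alternatively activated macrophages, was called higher in WT control (1.58, SE 0.41, adjusted *P* = 0.0303 by edgeR), at 9.95 and 4.77 against 3.01 and 1.88 CPM. It was called lower with αMARCO in WT (adjusted *P* = 0.00298 by edgeR), where its 2 libraries held 12 and 3 counts, too few for a firm fold. The mannose receptor *Mrc1* was lower in WT control than in *Unc93b1* 3d/3d control (−1.07), and *Retnla*, an alternative activation gene, was higher with αMARCO in WT (3.49, SE 0.26, adjusted *P* = 0.000583 by edgeR), from 6.11 and 5.65 to 80.5 and 51.8 CPM.

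Among the PU.1 targets in control TAMs, 1 of 10, *Itgam*, was called higher in WT (0.63) and 1, the lysozyme gene *Lyz2*, lower (−0.51), with a median of 0.12. With αMARCO in WT 0 of 10 passed the thresholds by edgeR and 0 by DESeq2, while 6 had an unadjusted *P* under 0.05 by edgeR, and the median was 0.20. Of the 7 C/EBP-beta targets tested, the cytokine *Il6* was called higher in WT control (1.42), and the scavenger receptor *Msr1* (−0.76) and the cytokine receptor subunit *Il13ra1* (−0.56) lower. With αMARCO in WT, *Nr4a1*, an orphan nuclear receptor, was called higher (0.61) and *Il6* lower (−1.10).

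Of 30 other myeloid transcription factors tested, 9 were called higher and 3 lower in WT control TAMs, with a median of 0.26. *Batf3*, a factor of type 1 dendritic cells, had a log2 fold change of 2.25 (SE 0.13, adjusted *P* = 1.14e-05 by edgeR), *Klf2*, a factor of quiescence and of nonclassical monocytes, 1.39, the inhibitor *Id3* 1.84, and *Klf4* 0.77. With αMARCO in WT 5 were called higher and 6 lower, with a median of 0.049. The repressor *Bcl6* had 0.64, *Batf3* −0.83, *Cebpd* −0.63, and *Zbtb46*, a factor of conventional dendritic cells, −2.84. Among 17 partners and regulators tested, 1 was called higher and 1 lower in control TAMs, near the shares over all genes tested. They were *Trib2*, a pseudokinase that leads C/EBP-alpha to degradation, at 2.09, and *Bhlhe41*, the paralog of *Bhlhe40*, at −1.21. *Bhlhe41* had 4.05 and 5.54 CPM in WT control and 10.9 and 11.0 CPM in *Unc93b1* 3d/3d control. With αMARCO in WT, the histone demethylase *Kdm6b* was called higher (0.64). *Rxra*, which encodes the partner of PPAR-gamma in DNA binding, was called lower (−0.51), as was *Trib2* (−2.15). *Egr2* and *Ppara* were not analysed here.

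**Figure D4:**
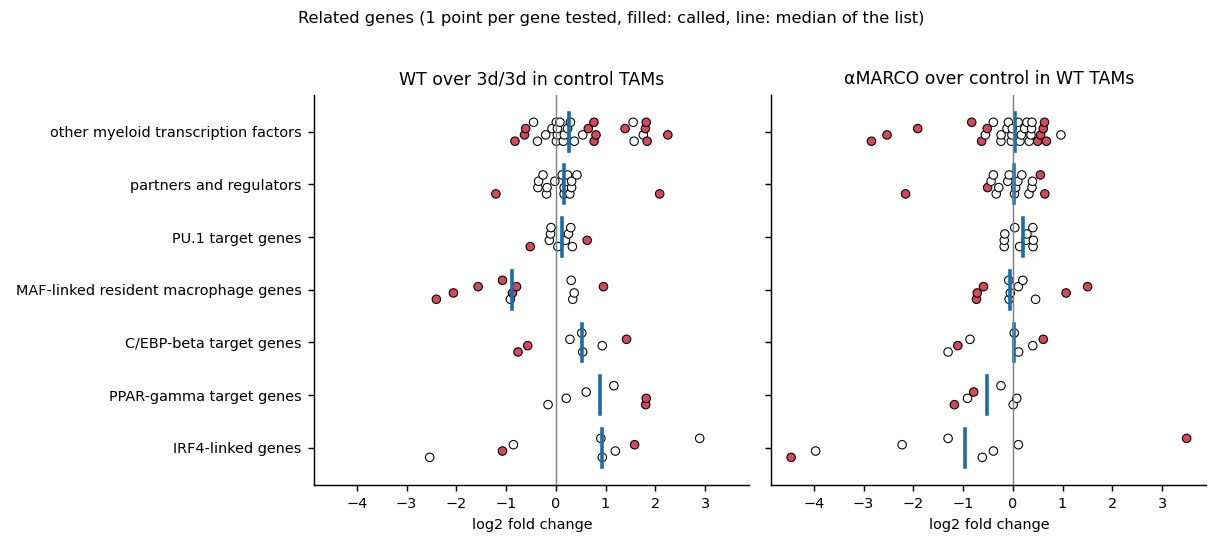
Log2 fold changes of the related genes, 1 point per gene tested, in WT over *Unc93b1* 3d/3d control TAMs (left) and αMARCO over control in WT TAMs (right), filled where called, with a line at each list's median. The medians of the PPAR-gamma list are 0.89 and −0.51 and those of the MAF-linked list −0.87 and −0.049.

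The other 2 comparisons, WT against *Unc93b1* 3d/3d under αMARCO and αMARCO against control in *Unc93b1* 3d/3d TAMs, asked whether the differences hold under treatment and whether treatment acts without endosomal TLRs. Both hold the library that stood apart. Under αMARCO, 0 of the 9 factors and 0 of 15722 genes (0.0%) were called between genotypes by edgeR, while 1076 genes had an unadjusted *P* no higher than 0.05, and 215 genes but 0 of the 9 factors were called by DESeq2. The groups did not overlap for 5 of the 9, against 44.3% of all genes, and the median log2 fold change was 0.09 over the 9 and −0.031 over all genes. *Pparg* was higher in both WT libraries, at 65.3 and 63.5 against 26.2 and 40.0 CPM, with a log2 fold change of 0.97 (SE 0.26, adjusted *P* = 0.572 by edgeR). *Maf* had 0.47 (SE 0.24), *Zeb2* 0.47 (SE 0.28), *Cebpa* −0.79 (SE 0.32) and *Cebpb* −1.17 (SE 0.78).

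In *Unc93b1* 3d/3d TAMs, 0 of the 9 factors and 0 of 15428 genes (0.0%) were called between αMARCO and control by edgeR, while 744 genes had an unadjusted *P* no higher than 0.05, and 60 genes but 0 of the 9 factors were called by DESeq2. The groups did not overlap for 2 of the 9, *Irf4* and *Zeb2*, against 38.9% of all genes. The median log2 fold change was 0.24 over the 9 and 0.029 over all genes. *Maf* had −0.08 (SE 0.28), *Irf4* 0.27 (SE 0.31), *Bhlhe40* −0.05 (SE 0.22) and *Pparg* 0.24 (SE 0.28).

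The difference between the αMARCO effects in WT and *Unc93b1* 3d/3d TAMs was tested in a model of all 8 libraries. By edgeR 0 of the 9 factors and 0 of 16620 genes (0.0%) were called, while 2549 genes had an unadjusted *P* no higher than 0.05, and 208 genes but 0 of the 9 were called by DESeq2. The factors that were called in WT TAMs had differences of −1.15 for *Irf4* (SE 0.33), −0.82 for *Bhlhe40* (SE 0.26), 0.78 for *Maf* (SE 0.29) and −0.74 for *Pparg* (SE 0.30), each with adjusted *P* = 0.318 by edgeR. The αMARCO effects on these factors are thus not shown to differ between the genotypes.

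These 3 results turned on the 2 *Unc93b1* 3d/3d αMARCO libraries. Without the second, *Pparg* was called higher in WT under αMARCO (log2 fold change 1.30) together with *Cebpb* (0.54), among 1252 genes in all, *Cebpb* was called lower with αMARCO in *Unc93b1* 3d/3d TAMs (−0.55), among 571 genes, and the difference between the effects was called for 0 of the 9, among 612 genes, with −1.03 for *Irf4* (adjusted *P* = 0.0855 by edgeR). Without the first, 6, 5 and 8 of the 9 factors were called in these 3 tests, among 6366, 5500 and 6440 genes, and *Cebpb* under αMARCO had −1.93. In each of these fits the lone library was assumed to vary like the other groups.

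Within this group the second library differed from the first by gene length. *Cebpb*, at 1504 bases the shortest of the 9, was 2.47 higher on the log2 scale in the second library, *Spi1* (2695 bases) 1.04, *Cebpa* (2636 bases) 0.79 and *Pparg* (2953 bases) 0.61 higher. *Maf* (8241 bases) differed by −0.37 and *Zeb2*, the longest at 19942 bases, by −0.62. *Runx3* (5003 bases) differed by −0.31, *Bhlhe40* (4705 bases) by 0.16 and *Irf4* (4903 bases) by 0.26. The difference of *Cebpb* lay far above the median of 0.53 and the upper quartile of 0.88 in its length bin. *Spi1*, *Cebpa* and *Pparg* share a bin, and all lay above its median of 0.22 and upper quartile of 0.57. *Irf4* lay above the median of −0.12 and the upper quartile of 0.20 in its own. *Maf*, *Zeb2*, *Runx3* and *Bhlhe40* lay between the quartiles of their bins. Over 13435 genes with a mean of at least 1 CPM, Spearman's rho between this difference and gene length was −0.45, against −0.12 to 0.11 in the other groups. These are correlations across genes, which are not independent replicates.

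**Figure D5:**
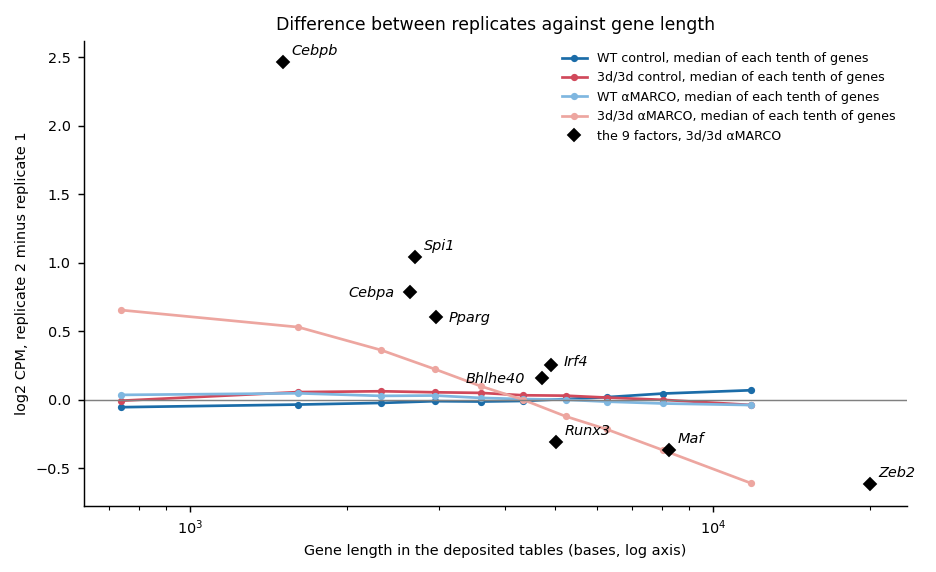
Difference between replicates (log2 CPM, replicate 2 minus replicate 1) against gene length (bases, log axis), with lines through the medians of 10 bins of equal gene number for each group and diamonds for the 9 factors in *Unc93b1* 3d/3d αMARCO TAMs. The line of this group falls from 0.66 for the shortest genes to −0.61 for the longest, and the diamonds run from 2.47 for *Cebpb* to −0.62 for *Zeb2*.

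The genes most like each called factor across the 8 libraries were named by Pearson's r of log2 CPM among 9046 other genes with a mean of at least 10 CPM. The 8 libraries fall into 4 groups and share depth and composition, so r is a description. For *Pparg* they were *Agfg2* (r = 0.99) and *Clec4a1*, a myeloid C-type lectin (r = 0.99), which had 603 and 704 CPM in WT control and 249.6 and 293 CPM in *Unc93b1* 3d/3d control. For *Irf4* they were *Aebp2* (r = 0.97) and *H2-Ob*, an MHC class II accessory gene (r = 0.97). *Bhlhe40* was most like *Kpna2* (r = 0.97) and *Tmem123* (r = 0.96), and *Maf* most like *Nsun3* (r = 0.96) and *Armcx3* (r = 0.95).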

How the data were processed

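Poly-A RNA-seq of sorted TAMs was analysed in 4 groups of 2 libraries. Per the methods and labels, the authors trimmed reads with fastp, aligned them to GRCm38 (HISAT2 2.0.5) and obtained gene counts from featureCounts 1.5.0, and the raw counts in the 3 deposited tables were used as deposited. The normalized counts, FPKM values and the authors' DESeq2 1.40.2 comparisons (fold changes and *P* values) in those tables were not used. The tables were joined by gene identifier, and none of the 95230 counts held by more than 1 table differed.

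Levels are CPM with TMM factors over the 8 libraries. Each comparison used edgeR 4.0.16 in R 4.3.3: genes were filtered with filterByExpr, TMM was applied, and the robust quasi-likelihood test with Benjamini-Hochberg adjustment was fitted to the 4 libraries compared, or to all 8 for the difference between effects. The scripts were tested on simulated counts. Each SE is the absolute log2 fold change divided by the square root of the quasi-likelihood F statistic, not a standard error returned by edgeR. The 9 factors, the related genes and the markers were chosen with earlier results of these data known. The text names the 9 factors, from each list up to 4 called genes with the smallest adjusted *P*, defining genes of the marker lists, and for each called factor the 2 genes with the highest r. Alternatives were DESeq2 1.42.0 and its size factors, other filters and fold thresholds, the replicate number as a block, 1 model of all libraries, each library left out and, added after the data were seen, smooth length and GC terms per library (mgcv 1.9.3). Positions are from the annotation on GRCm38, and upstream windows from RefSeq. One gene of the related lists is not reported here.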

Additional observations from a re-analysis of the deposited data

Results flagged for a closer look

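For 4 factors, the groups compared did not overlap in either setting, and their order was reversed between the settings. None of the differences between the settings passed edgeR's test across all genes. Within a single setting, *Irf4* was called for αMARCO in WT TAMs and *Bhlhe40* between genotypes in control TAMs. Some gaps were small. *Zeb2* had 565.7 CPM in the first *Unc93b1* 3d/3d αMARCO library and 566.7 CPM in the first *Unc93b1* 3d/3d control library. *Bhlhe40* had 128.6 CPM in the second WT αMARCO library and 128.9 CPM in the first *Unc93b1* 3d/3d αMARCO library. *Maf* had 525 and 529 CPM in the nearest control libraries of the genotypes. The αMARCO effect on *Irf4* was negative in WT TAMs and positive in *Unc93b1* 3d/3d TAMs, a difference of −1.15 (log2, adjusted *P* = 0.318). The genotype effect on *Maf* was lower in control and higher under αMARCO, a difference of 0.78 (adjusted *P* = 0.318 by edgeR), and that on *Bhlhe40* was higher in control and lower under αMARCO, a difference of −0.82 (adjusted *P* = 0.318 by edgeR). The order of the groups was reversed for *Zeb2* under either reading, as a genotype effect and as an αMARCO effect, with a difference of 0.62 (adjusted *P* = 0.339 by edgeR). Each of these differences includes the second *Unc93b1* 3d/3d αMARCO library.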

How the results depend on the processing

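Of the values for single factors under the alternatives, 449 kept their direction and side of the thresholds, 33 passed newly, 14 no longer passed and 26 changed sign. The causes were not tested.

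Between genotypes in control TAMs, 951 genes were called with a log2 fold threshold of 1 and 364 in 1 model of all libraries, against 2025, and 5 factors were called without the count filter. Under αMARCO, genes called between genotypes went from 0 to 215 with DESeq2, 107 without the filter, 97 with the block, 108 in 1 model and 5 with length and GC terms. For αMARCO in WT, 3236 became 5487 without a fold threshold, 1366 with a threshold of 1 (0 factors) and 164 in 1 model (0 factors). For αMARCO in *Unc93b1* 3d/3d, 0 became 60 with DESeq2, 174 without the filter (1 factor, *Cebpb*), 5 with the block and 1 in 1 model. For the difference between effects, 0 became 208 with DESeq2 and 152 without the filter.

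Leaving out 1 library at a time gave 1493 to 2232 genes and 3 to 4 factors in control TAMs, 17 to 6366 and 0 to 6 under αMARCO, 1940 to 3951 and 2 to 5 in WT, 1 to 5500 and 0 to 5 in *Unc93b1* 3d/3d, and 0 to 6440 and 0 to 8 for the difference. Signs turned within these ranges: between genotypes, *Cebpb* in control −0.23 to 0.081, and under αMARCO *Spi1* −0.66 to 0.37, *Cebpb* −1.93 to 0.54, *Irf4* −0.10 to 0.26 and *Runx3* −0.055 to 0.26. For αMARCO in WT, *Cebpa* ran from −0.15 to 0.10 and *Cebpb* from −0.053 to 0.15. For αMARCO in *Unc93b1* 3d/3d, *Maf* ran from −0.28 to 0.15, *Cebpb* from −0.55 to 1.93, *Pparg* from −0.11 to 0.51, *Bhlhe40* from −0.14 to 0.043 and *Runx3* from −0.37 to 0.059. For the difference, *Cebpb* ran from −1.87 to 0.59.

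With length and GC terms, signs turned for *Zeb2* in control (0.15), *Spi1* (0.047) and *Cebpa* (0.16) in WT, *Maf* (0.093), *Zeb2* (0.11) and *Bhlhe40* (0.018) in *Unc93b1* 3d/3d, and *Zeb2* in the difference (−0.019).

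Groups share the replicate numbers 1 and 2, but no source ties same-numbered libraries together, and the correlations of their deviations were −0.08 to 0.15. With the replicate block, 2395, 97, 3086, 5 and 0 genes were called in the 5 tests, and *Runx3* was also called in control TAMs (−0.69).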
